A study of Mus musculus with 9 samples.

Results

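The transcriptome of resting macrophages is described here from the 3 PBS-treated libraries of a mouse RNA sequencing series of 9 libraries. These 3 were taken by their labels alone, and no contrast with another group was made. The cells were wild-type bone marrow-derived macrophages of male mice 6 to 12 weeks old. The marrow was grown in DMEM with fetal bovine serum and given recombinant murine M-CSF at 25 ng/mL every other day over 6 days, and the resulting cells received PBS, the vehicle, for 18 hours. The other 6 libraries came from such cells exposed to macrophage exosomes of wild-type or ApoE-deficient mice, and they enter below only where the spread between libraries is set beside theirs. The design text calls the 3 libraries of a group biological replicates, but no source used here says whether they came from separate mice, so every SD below measures the spread between these libraries, which may be technical.

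M-CSF binds the receptor tyrosine kinase encoded by Csf1r, and this signal turns marrow progenitors into adherent macrophages and keeps them alive. Macrophages take up particles, lipoproteins and dying cells through many receptors, many of them members of gene families, and break the cargo down in lysosomes. Lipid that leaves the lysosome is exported through ABC transporters to acceptors such as apolipoprotein E, and iron from ingested cells is stored in ferritin.

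Levels are given on 2 scales. CPM is the count of a gene per 1000000 counted reads of its library and serves to compare libraries. TPM divides counts by the merged exon length of a gene before scaling to the same library total, and every comparison between genes is made in TPM. Values in a row of 3 belong to PBS replicates 1, 2 and 3 in that order, and ± is the SD over 3 libraries. A gene counts as expressed at 1 CPM or more in each of the 3 libraries, and at the floor with at most 3 counts in each. The floor of 3 counts equals 0.102, 0.0919 and 0.0847 CPM. Genes between these limits are low.

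The libraries held 29501297, 32643126 and 35407508 counts over 18680, 18265 and 18035 detected genes. Of 55536 genes listed, 10989 were expressed, 7890 were low and 36657 were at the floor. Among protein-coding genes 10452 of 22028 (47.4%) were expressed. A mean of 10 CPM was reached by 8295 genes, 100 CPM by 2154, 1000 CPM by 90 and 10000 CPM by 6. Between 11.9% and 12.2% of the counts fell on the 10 highest genes. Every pair of libraries differed by more than counting error, with a chi-square per gene of 8.23 to 9.85. Y-linked Ddx3y stood at 95.96, 101 and 90.1 CPM, while Xist, the transcript of the inactive X chromosome, had 0, 5 and 0 counts. The mice are labelled male.

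All 20 genes of a macrophage marker list were expressed. The list took 5.24 ± 0.0678% of all counts. Csf1r, the M-CSF receptor, was at 2728, 2571 and 2597 TPM. Apoe, the lipid carrier, was at 33275, 33592 and 34849.5 TPM, and Cd68, a lysosomal glycoprotein, at 7494, 7392 and 7474 TPM. C1qa, a chain of the first complement component, was at 1999, 2049.8 and 1956 TPM. All 4 were even between libraries, and the CPM of Csf1r had a coefficient of variation (CV, SD over mean) of 3.27%. Fcgr1, the high-affinity receptor for IgG, was about an order of magnitude lower per length than Csf1r, at 189, 209 and 202 TPM. Cx3cr1, the fractalkine receptor, was at 247, 256 and 261 TPM. The lowest of the 20 was Cd163, the haemoglobin scavenger receptor, at 1.74, 1.14 and 1.69 TPM.

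Marker lists of other cells ranged from no expressed gene to all genes expressed, beside 47.4% of all protein-coding genes. No gene of the dendritic cell (9 genes), erythroid (8), mast cell and basophil (6), megakaryocyte (6) or epithelial (4) lists was expressed. In the neutrophil list 6 of 12 genes were expressed, and its summed level of 204 to 211 CPM came mainly from Csf3r, the G-CSF receptor, at 175, 169.6 and 176 CPM. Ly6g and Elane, which define neutrophils and their precursors, were at the floor. Ighm, the heavy chain of IgM, was at 49.4, 47.3 and 45.7 CPM, but Cd79a, a part of the B cell receptor, was at the floor. Among lists of tissue macrophages, all 5 red pulp genes were expressed, but nearly all of their summed level came from the iron exporter Slc40a1 at 213, 209 and 214 TPM. The next, Vcam1, was at 4.604, 4.06 and 5.39 TPM, and Spic, the defining factor of red pulp macrophages, at 3.04, 1.53 and 2.08 TPM. Of the microglia list 4 of 8 were expressed, led by Fcrls at 297, 306 and 315 TPM, and Sall1, a defining transcription factor of microglia, was at the floor. Of the Kupffer cell list 2 of 6 were expressed, Cd5l at 269.8, 251 and 281 TPM and Vsig4 at 4.7005, 5.66 and 6.52 TPM, and the defining Clec4f was at the floor. The osteoclast list was led by Nfatc1 at 70.3, 72.5 and 68.5 TPM and Atp6v0d2 at 46.8, 47.0 and 41.2 TPM. The alveolar macrophage list was led by Pparg at 50.9, 60.7 and 53.0 TPM and Fabp4 at 27.8, 25.1 and 29.9 TPM. Calcr of the osteoclast list and Car4 of the alveolar list were at the floor. In bulk RNA, fewer cells of a type and less RNA per cell cannot be told apart.

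**Figure D1:**
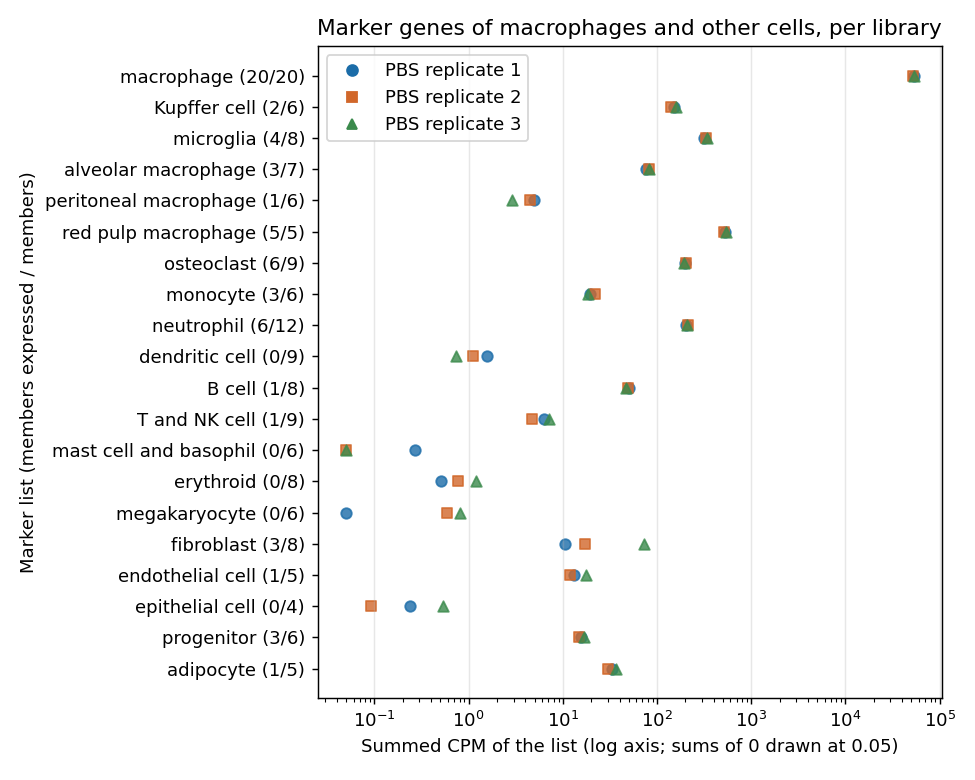
Summed CPM (x axis, log scale) of each marker list (y axis, with the number of expressed members over all members) in PBS replicates 1, 2 and 3. The macrophage list lies at 51649 to 52876 CPM, and the next highest list, red pulp macrophages, at 515 to 537 CPM, of which Slc40a1 alone gives 509.8 ± 9.09. In the fibroblast list replicate 3 lies at 71.8 CPM, above the others at 10.5 and 17.3.

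Fibroblast genes stood apart in 1 library. The list of 8 summed to 10.5, 17.3 and 71.8 CPM. Col1a1, a chain of type I collagen, was at 6.27, 6.62 and 35.7 CPM and Col1a2, its partner chain, at 2.17, 5.21 and 25.5 CPM. Both were several times higher in replicate 3 than in the other 2 libraries. Of the other members, Postn was highest in replicate 3, at 1.53, 3.92 and 8.67 CPM, as was Cxcl12, and the rest were not. Pdgfra, which marks fibroblasts, and Lum were at the floor in all 3. The low genes Pdgfrb, with 6, 4 and 44 counts, and Mmp2, with 5, 0 and 104 counts, were also highest in replicate 3.

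The largest shares of counted reads went to Apoe, with 19014, 19116 and 20022 CPM, and Fth1, the ferritin heavy chain, with 19362, 18491 and 19409 CPM. Fth1 was the higher of the pair in replicate 1 and Apoe in the other libraries. Next were Ctsb, cathepsin B, with 15472 ± 198 CPM, Lyz2, lysozyme, with 14095 ± 552 CPM, Psap, the precursor of the saposins, with 12560.4 ± 488 CPM, and Gpnmb, a glycoprotein of lysosomes and phagosomes, with 12496 ± 263 CPM. Together these 6 genes took 9.31 ± 0.156% of all counts. Further down came Mpeg1, the pore-forming perforin-2, at 6729 ± 45.1 CPM, the protease gene Ctsd at 6378 ± 160.1 CPM, the endocytic receptor gene Lrp1 at 6334 ± 171 CPM and Csf1r itself at 4064 ± 133 CPM, in place 13. Lrp1 and Csf1r both encode receptors of the cell surface. The mitochondrial transcripts mt-Co1, mt-Cytb and mt-Nd5 and Actb, the cytoskeletal beta-actin, were also among the highest 20 genes, with mt-Co1 next after Gpnmb at 7791 ± 325 CPM. Sirpa, the receptor for CD47, Lipa, the acid lipase, and Lpl, lipoprotein lipase, were also among the highest 20. Per length the order changed to Lyz2 at 40057 ± 1603 TPM, Apoe at 33906 ± 833 TPM and Fth1 at 20577 ± 478 TPM.

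**Figure D2:**
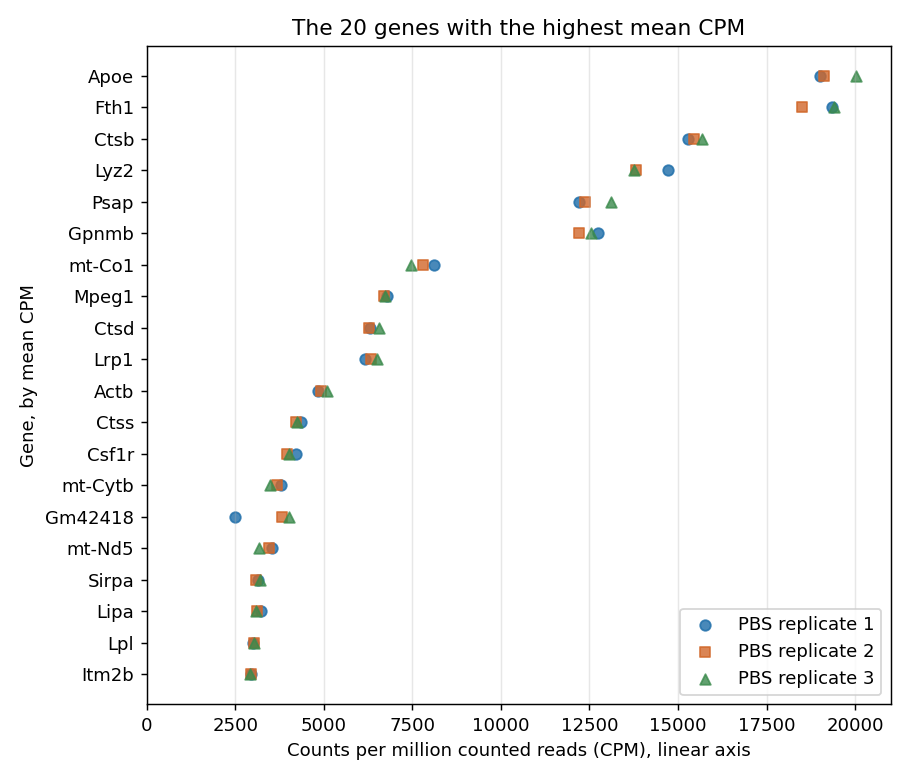
CPM (x axis, linear, from 0) of the 20 genes with the highest mean, with a point for each PBS library. Points of a gene lie close together except for Gm42418, where replicate 1 is at 2499 CPM and the others are at 3819 and 4016.

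Gm42418 is a transcript annotation of which 99.5% of the exon length overlaps other exons, and it was the least even of the 20, with a CV of 23.9%.

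All 30 genes of a list of lysosomal hydrolases were expressed (beside 47.4% of all protein-coding genes), with a median level of 205.8 CPM. Their median CV was 2.89%, beside 3.57% over all genes at 100 to 500 CPM and 2.45% over those above 500 CPM. Among cathepsins, the proteases of the lysosome, 12 of 14 were expressed. Ctss, cathepsin S, was at 12032, 11623 and 11599 TPM, and Ctsb at 9454, 9589.9 and 9645 TPM. Ctsd, cathepsin D, was at 10037, 10013 and 10386 TPM, but 35.8% of its 50-base words also occur in other genes. Ctsg and Ctsw, known from granules of neutrophils and lymphocytes, were at the floor. Ctss was above Ctsd and Ctsd above Ctsb in each library, although with the longest transcript as length Ctsb took the first place.

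The subunits of the proton pump that acidifies the lysosome had unequal paralogs. Tcirg1, the a3 subunit also known from osteoclasts, was at 584, 609.8 and 626 TPM against 250.4, 257 and 254 TPM for Atp6v0a1. Atp6v0d1 was at 309.9 ± 13.5 TPM and Atp6v0d2, the form known from osteoclasts, at 44.99 ± 3.304 TPM. Atp6v1b2 and Atp6v1c1 were expressed at 329.9 ± 5.06 and 140.0 ± 8.48 TPM, and their partners Atp6v1b1 and Atp6v1c2 were at the floor. Lamp1, a main protein of the lysosomal membrane, was at 2812, 2815 and 2788 TPM and was among the 10 most even of 6512 protein-coding genes with a mean of at least 20 CPM, with a CV of 0.190%. Lamp2 was at 293, 289.8 and 270.3 TPM, and Lamp3 and Lamp5 were at the floor. Of the 2 lysozymes, Lyz1 was at 22.7, 23.5 and 21.1 TPM, so Lyz2 held 99.944 ± 0.00316% of the summed TPM.

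Many lysosomal promoters are known to carry the E-box CACGTG, the core of the sites of the MiT/TFE transcription factors. All 4 genes of that family were expressed, with Tfe3 at 95.4, 96.7 and 98.8 TPM, Mitf at 79.3, 82.4 and 74.3 TPM, Tfeb at 47.4, 48.3 and 49.4 TPM and Tfec at 11.1, 11.3 and 9.47 TPM. Tfe3 was thus above Mitf, and Mitf above Tfeb, in each library. RefSeq promoter windows (GRCm38.p6, 250 bases before to 50 after a start) could be matched for 52 of the 70 genes of the lysosomal families and the hydrolase list. The letters CACGTG, which read the same on both strands, stood in 13 of their 59 windows (22.03%). The same letters stood in 10.3% of 11038 windows of expressed genes, 4.87% of 10249 windows of genes at the floor and 7.58% of all 25174. Windows with the motif only after the start, or on a chromosome set aside, were not considered for display. The 6 genes with the highest TPM among the others that hold it are shown. Each stretch around the motif lies upstream of the start and reads 5′ to 3′ on the strand of the gene, with CACGTG in capitals:
Ctsd, chr7:142388027-142388077, minus strand: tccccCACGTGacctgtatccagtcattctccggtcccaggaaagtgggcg
Lamp1, chr8:13159060-13159145, plus strand: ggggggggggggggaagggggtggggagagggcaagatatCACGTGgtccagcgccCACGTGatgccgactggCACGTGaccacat
Lgmn, chr12:102439096-102439181, minus strand: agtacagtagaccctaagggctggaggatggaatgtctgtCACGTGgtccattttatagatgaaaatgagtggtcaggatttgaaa
Ctsa, chr2:164833721-164833772, plus strand: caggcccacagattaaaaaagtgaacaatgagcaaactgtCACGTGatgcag
Ctsl, chr13:64370711-64370770, minus strand: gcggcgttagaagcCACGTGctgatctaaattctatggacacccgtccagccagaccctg
Gla, chrX:134601187-134601255, minus strand: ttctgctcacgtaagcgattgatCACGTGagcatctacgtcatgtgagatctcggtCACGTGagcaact

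The stretch of Lamp1 holds the letters at 3 places and that of Gla, alpha-galactosidase A, at 2. In Ctsa, the protective protein cathepsin A, the motif begins 12 bases before the RefSeq start, and in Ctsd 245 bases before it. GENCODE places the 5′ end of the Ctsd gene at 142388038, within the stretch shown, so upstream refers to the RefSeq start only. The genes shown differed widely in level, from 239.6 ± 10.9 TPM for Gla, 416 ± 9.35 TPM for Ctsl, cathepsin L, and 1160.4 ± 12.5 TPM for Ctsa to 10145 ± 209 TPM for Ctsd. Lgmn, the asparaginyl endopeptidase legumain, was at 1685 ± 44.9 TPM. A match is a description of letters and not a bound site.

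Other promoter letters, searched on both strands, also differed with the level of the gene. GGGCGG, the GC box, stood in 19.7% of windows of genes at the floor, 41.1% of low genes and 63.2% of expressed genes, but in 48 of 87 windows (55.2%) of genes with a mean of at least 1000 CPM. TATAAA, the TATA box, stood in 18.98% of windows of genes at the floor and 6.74% of expressed genes, and in 18 of the 87 windows (20.7%) of the highest class. GAGGAAGT, letters bound by PU.1, stood in 3.40% of windows of expressed genes and 2.94% at the floor. Motifs were counted separately, so that they could overlap in a window. Windows were matched for 12 of the 20 macrophage markers, and 1 of their 14 windows held the PU.1 letters. It belongs to C1qc and is shown because that gene is among the 3 C1q chains named here, with the letters in capitals as they read on the strand of the gene:
C1qc, chr4:136893062-136893149, minus strand: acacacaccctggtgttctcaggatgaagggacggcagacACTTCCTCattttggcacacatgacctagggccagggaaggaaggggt

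C1qc itself was at 3263, 3220.5 and 3369 TPM. The other C1q chains were C1qb at 6721, 6698 and 6944 TPM and C1qa at the level given above, so C1qb was the highest per length in each library. Of 18 complement genes 7 were expressed (beside 47.4% of all protein-coding genes). Among them were Cfp, properdin, at 421, 482 and 479.9 TPM and C3 at 166, 148 and 139.9 TPM. The 8 genes at the floor were C4b, Hc, Cfd, Cfi, C6, C7, C8a and C9.

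Lipid export and iron handling each rested on few paralogs. Apoe was the only expressed gene of 12 apolipoproteins (beside 47.4% of all protein-coding genes), with Apoc1 and Apob low and 9 at the floor. Abca1, the cholesterol exporter to lipid-poor acceptors, was at 248, 239 and 239.8 TPM, and Abca3, the next of its family, at 72.3, 72.7 and 75.6 TPM. Abcg1, which exports cholesterol to lipoproteins, was at 247, 249 and 258 TPM, and no other ABCG gene reached 10 TPM. Soat1, which esterifies cholesterol for storage, was at 242, 232 and 233 TPM, and Soat2 was low. Lpl was at 1072, 1087 and 1078 TPM, whereas Lipg was at the floor. Ferritin heavy chain Fth1 was at 20883, 20027 and 20821 TPM. The light chain Ftl1 was lower, at 4941, 4759.9 and 5192 TPM, but 75% of its 50-base words occur in other genes. Slc11a1, the phagosomal metal transporter, exceeded its ubiquitous relative Slc11a2 by 22.5 ± 1.77 times, at 739, 739 and 758 against 35.9, 32.2 and 31.5 TPM. Hmox1, which releases iron from haem, was at 2375, 2240.1 and 2189.7 TPM and Hmox2 at 214, 211 and 187 TPM.

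Across the 137 paralog families with 823 members, 523 members were expressed (beside 47.4% of all protein-coding genes), 151 were low and 149 were at the floor. A clear leader, a member at least 2 times above the next in TPM in each of the 3 libraries, was present in 89 families, and all 89 leaders were expressed. The leading member was the same in all 3 libraries in 129 families. The share of a leading member in the summed TPM of its family had a median of 69.9%, was over 90% in 35 families and under 50% in 33. The median SD of that share over the libraries was 0.805 percentage points. In 124 families the leading 2 genes shared less than 20% of their 50-base words with other genes, and 79 of these had a clear leader.

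Growth factor receptors were led by Csf1r alone. Its relatives were far lower, with Kit, the stem cell factor receptor, at 0.455, 0.956 and 0.5897 TPM, Flt3 and Pdgfrb low and Pdgfra at the floor. Csf1r held 99.956 ± 0.01704% of the family's TPM. The M-CSF receptor's own ligand Csf1 was at 1.99, 2.59 and 3.92 TPM. Csf2ra, the alpha chain of the GM-CSF receptor, was at 665, 703 and 662 TPM. The shared beta chain Csf2rb was at 176, 175 and 170.4 TPM and its IL-3-specific relative Csf2rb2 at 447, 455 and 469 TPM, and 17.1% and 19.2% of the 50-base words of this pair occur in other genes. Il3ra followed at 78.9, 93.5 and 84.1 TPM, Epor was low, and Il5ra was at the floor.

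Fc receptors for IgG were all expressed but at different levels. Fcgr3, an activating receptor of low affinity, was at 879, 878 and 899 TPM. Fcgr1 was at 189, 209 and 202 TPM, Fcgr4 at 102, 96.04 and 97.99 TPM and Fcgr2b, the inhibitory member, at 23.9, 25.98 and 22.6 TPM. The order was the same in each library, and Fcgr3 was 4.43 ± 0.21996 times the next. Among signalling adaptors of Fc and other receptors, Tyrobp (DAP12), which pairs with Trem2, was at 3918, 3744 and 4131 TPM and Fcer1g at 3233, 3125 and 3224 TPM. The related Hcst was at 20.6, 18.01 and 27.9 TPM and Cd247, the zeta chain of T cells, was low.

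Of 12 Toll-like receptors 9 were expressed (beside 47.4% of all protein-coding genes), and the 3 highest were endosomal sensors of nucleic acid. Tlr13, a sensor of bacterial ribosomal RNA, led at 461, 470.2 and 461 TPM. Tlr8 was at 338, 339 and 339 TPM and Tlr7, a sensor of single-stranded RNA, at 253, 246 and 231 TPM. Tlr2, the lipopeptide receptor, followed at 141, 118 and 121 TPM, Tlr9, a DNA sensor, at 101, 105 and 105 TPM, and Tlr4, the receptor of lipopolysaccharide, at 87.1, 80.4 and 77.2 TPM. These 6 kept their order in each library. Tlr5 and Tlr11 were low and Tlr12 was at the floor.

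The highest cytosolic sensors were lower than Tlr13, Tlr8 and Tlr7 and closer together. Naip2 and Nlrp1b, at 74.3 ± 3.52 and 72.6 ± 6.89 TPM, exchanged places between libraries, and Nlrp3 was at 70.1, 71.4 and 69.8 TPM. Nlrp6 was at the floor. The RNA sensors Dhx58, Ddx58 (RIG-I) and Ifih1 (MDA5) were at 50.3 ± 5.04, 41.8 ± 4.802 and 27.4 ± 2.74 TPM. With the longest transcript as length Ddx58 led instead of Dhx58. Among 20 C-type lectins, Clec4d stood far above the rest at 1214, 1176 and 1191 TPM. Next was Clec12a, an inhibitory receptor, at 254, 269 and 254 TPM. Clec7a (Dectin-1), the receptor of fungal beta-glucan, was at 213, 212 and 208 TPM, and Mrc1, the mannose receptor, at 56.4, 63.3 and 57.4 TPM. Cd209a, Clec4f and Clec4g were at the floor.

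Cytokine receptors showed strong differences within families. Il10ra, the IL-10 receptor chain, and Ifngr1, the interferon gamma receptor chain, were close, at 295, 308 and 299 and 284, 292 and 288 TPM, with Il10ra the higher in each library but Ifngr1 with the longest transcript as length. Both type I interferon receptor chains were expressed, with Ifnar2 at 147, 156 and 164 TPM and Ifnar1 at 131, 132 and 128 TPM, whereas the interferon lambda receptor gene Ifnlr1 was at the floor. In the IL-1 receptor family, Il1rap, the accessory chain, was the highest at only 5.09, 4.87 and 4.01 TPM, and Il1r1, Il1r2, Il1rl1, Il1rl2 and Il18r1 were low. Il7r led the class I cytokine receptors at 246, 248 and 249 TPM, and Il12rb1, Il9r, Il2rb and Il13ra2 were at the floor. Il4ra was at 83.7, 80.3 and 90.01 TPM and Il6ra at 65.2, 68.4 and 68.9 TPM.

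Among 18 TNF receptors, Tnfrsf1b (TNFR2) was at 834, 831 and 855 TPM and Tnfrsf1a (TNFR1) at 318, 310.5 and 303 TPM. The first was 2.71 ± 0.104 times the second. Tnfrsf11a, which encodes RANK, the receptor for the osteoclast factor RANKL, was at 95.02, 98.3 and 99.8 TPM. Of the TGF-beta family receptors Tgfbr1 was at 241, 258 and 239 TPM and Tgfbr2 at 129, 129 and 130.2 TPM, and Bmpr1b was at the floor.

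Of 23 chemokine receptor genes 8 were expressed (beside 47.4% of all protein-coding genes), 4 were low and 11 were at the floor. Cxcr4, the CXCL12 receptor, was at 974, 948 and 952 TPM, and Cx3cr1 followed at 247, 256 and 261 TPM. Ccr2, the receptor that brings monocytes to tissue, was at 8.57, 9.64 and 7.07 TPM. The 11 genes at the floor were Ackr1, Ackr2, Ackr3, Ccr4, Ccr6, Ccr8, Ccr10, Cxcr1, Cxcr5, Cxcr6 and Xcr1. Complement receptors were higher, with C3ar1 at 1477, 1463 and 1422 TPM and C5ar1 at 1092, 1088 and 1110.4 TPM, and C3ar1 was above C5ar1 in each library. The formyl peptide receptors Fpr1 and Fpr2 were low.

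**Figure D3:**
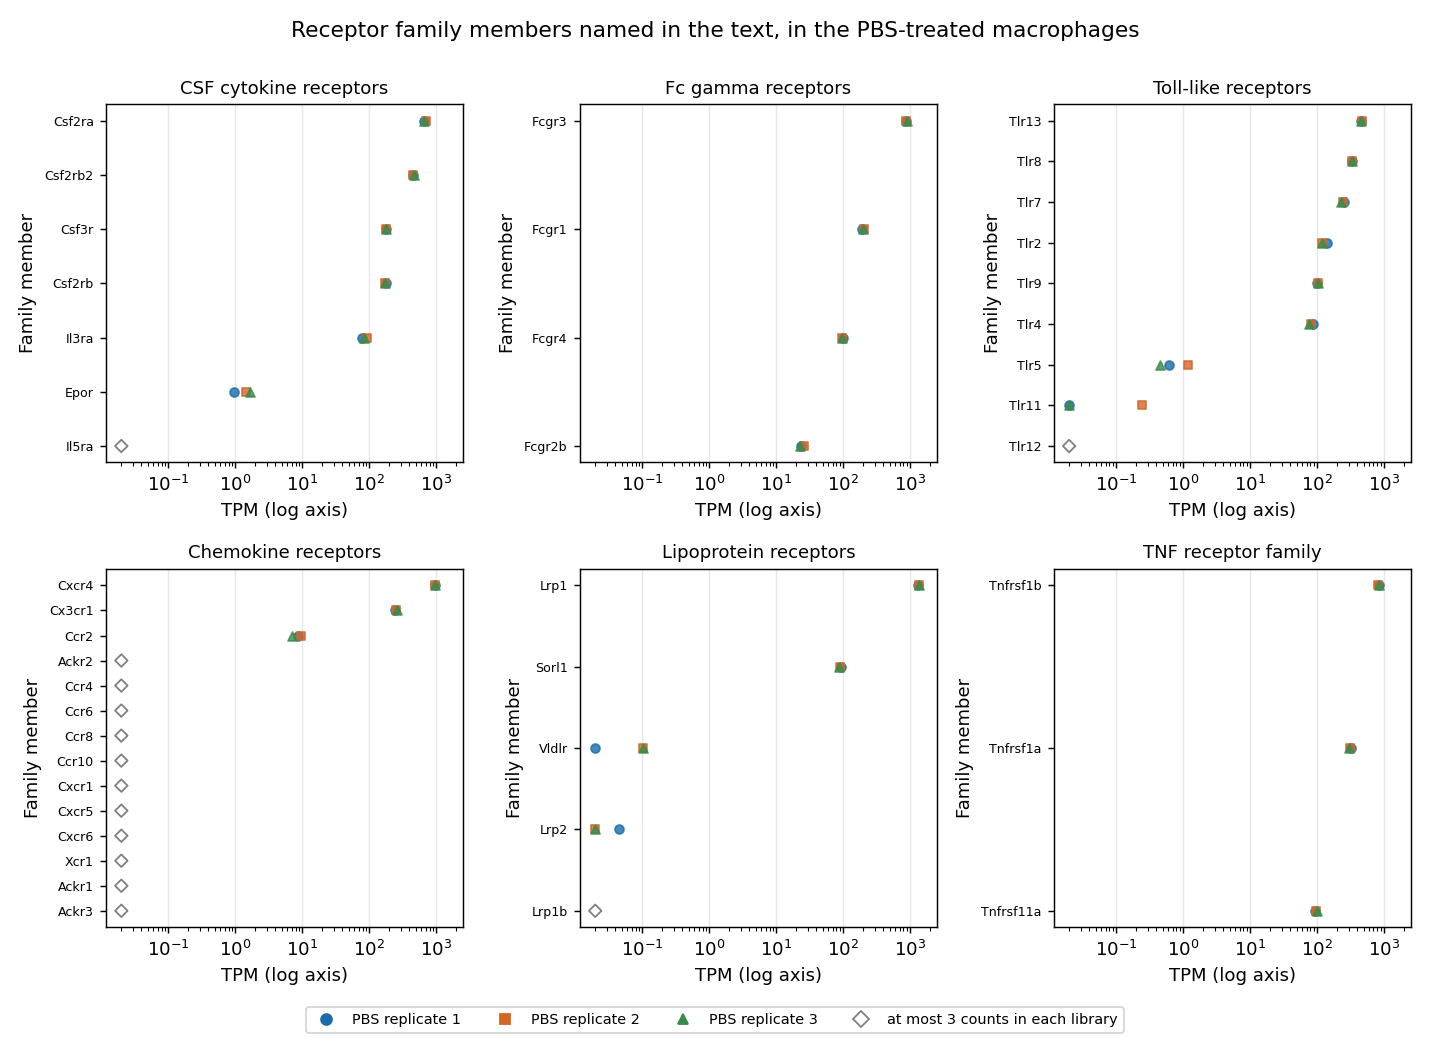
TPM (x axis, log scale) of the members of 6 receptor families that the text names, with a point for each PBS library. Open diamonds at the left edge mark genes with at most 3 counts in each library, and other points under 0.02 TPM are drawn at 0.02. The 3 points of the leading members nearly coincide, as for Cxcr4 at 958 ± 13.6 TPM, while members under 1 TPM scatter.

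Uptake receptors included some of the highest receptor transcripts. Lrp1, a receptor of apolipoprotein E and many other ligands, was at 1301, 1343 and 1366 TPM and held 86.1 ± 0.392% of the summed TPM of its family of lipoprotein receptors. Sorl1 was next at 93.1, 90.7 and 88.5 TPM. Vldlr and Lrp2 were low and Lrp1b was at the floor. Among scavenger receptors below Cd68, Stab1 was at 803, 868 and 868 TPM, Cd36, a receptor of oxidised lipid and fatty acids, at 596, 632 and 613 TPM, and Msr1, which binds modified LDL, at 82.8, 95.4 and 89.5 TPM. Marco and Olr1 were low.

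Receptors for dying cells were unevenly used. Axl was at 266, 283 and 280.2 TPM and Mertk at 210.0, 219 and 199 TPM, with Axl above Mertk in each library, and the third TAM kinase, Tyro3, was low at 0.0832 ± 0.0778 TPM. Timd4, the phosphatidylserine receptor of resident macrophages, was low, Havcr1 was at the floor and Havcr2 (TIM-3) was at 85.9, 88.3 and 89.1 TPM. Trem2, a lipid-sensing receptor that pairs with Tyrobp, was at 787, 806 and 838 TPM and 52.9 ± 13.99 times the next of its family, Treml1. Trem1 was low and Trem3 at the floor.

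Among inhibitory and related receptors, the Siglec family was led by Siglec1 (CD169) at 164, 166 and 176 TPM, with Cd33 next at 13.9, 18.1 and 14.6 TPM. CD300 receptors were more evenly used. Cd300c2 was at 536, 540.0 and 550.1 TPM, Cd300lb at 522, 513 and 500.3 TPM and Cd300ld at 370.1, 367 and 359 TPM. The inhibitory Cd300a followed at 274, 283 and 288 TPM.

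The highest integrin genes encoded beta chains. Itgb2, the chain of leukocyte integrins, was at 1419, 1444 and 1439 TPM, Itgb5 at 665, 679.9 and 724 TPM and Itgb1 at 595, 622 and 602 TPM. No alpha chain led clearly, and Itga6 and Itga5, at 192 ± 6.04 and 192 ± 5.82 TPM, exchanged places. Itgam (CD11b), at 102, 102 and 89.6 TPM, has 68.5% of its 50-base words in other genes and overlaps other exons over 68.7% of its exon length. Itgax (CD11c) was at 12.99, 16.7 and 17.1 TPM. The tetraspanin gene Cd9 was at 944, 922 and 882 TPM and Cd53 at 717, 683 and 702 TPM.

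Some receptors for nucleotides and lipids had a clear leader and others had none. P2ry6, the UDP receptor, was at 393, 382 and 388 TPM and held 89.1 ± 0.949% of the P2Y family, and the ADP receptor P2ry12, known from microglia, was at 2.94, 4.39 and 3.76 TPM. P2rx4 was at 194, 200.2 and 196 TPM against 77.5, 86.9 and 83.96 TPM for P2rx7, the ATP receptor that drives the inflammasome. S1pr1, for sphingosine 1-phosphate, was at 222, 233 and 221 TPM and S1pr2 at 94.9, 96.8 and 96.8 TPM, with S1pr3 and S1pr5 at the floor. Adenosine receptors were scarce, with Adora3 at 2.35, 2.01 and 1.38 TPM as the only member at 1 CPM or more in each library. Adora2b was higher per length in each library, at 3.78, 3.31 and 1.82 TPM, but is low by that limit, with 1.86, 1.62 and 0.904 CPM. With the longest transcript as length Adora3 led instead. The prostanoid receptor genes Ptger4 and Ptgir did not keep an order, and Ptgir was uneven at 28.1, 16.6 and 23.3 TPM. In the semaphorin receptors Plxnb2 was at 598, 595 and 615 TPM and Plxna1 at 496, 492 and 498 TPM. Of the Notch genes, Notch2 led at 159, 163 and 156 TPM and Notch3 was at the floor.

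Over all 34 receptor and adhesion families 193 of 306 members were expressed, beside 523 of 823 over all families and 47.4% of protein-coding genes. A clear leader was present in 15 of the 34, beside 89 of all 137 families.

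Of 17 transcription factor families 13 had a clear leader. Spi1, which encodes PU.1, was at 601, 619.7 and 605 TPM, with Spic at 3.04, 1.53 and 2.08 TPM and Spib low. Spi1 was above Spic in each library. Maf was at 202, 207 and 203 TPM. Cebpa was at 323, 324 and 386 TPM, highest in replicate 3, and Cebpb, induced in activated macrophages, at 149, 138 and 150.2 TPM. No GATA gene was expressed, and Gata1 and Gata4 were at the floor. Irf5 led its family at 424, 434 and 445 TPM, and Irf8, a factor of monocyte development, was at 168, 175 and 174 TPM. Stat6, which acts below the IL-4 receptor, was at 293, 291 and 299.9 TPM and exceeded Stat2 by 4.08 ± 0.372 times. Among NF-kB genes Rela, the p65 subunit, led at 235, 222 and 205 TPM. In 2 smaller families a member stood far above its relative. Zeb2 was at 146, 149.8 and 136 TPM and Zeb1 at 2.08, 1.24 and 1.095 TPM, and Bhlhe41 was at 80.4, 80.7 and 75.7 TPM and Bhlhe40 at 18.9, 17.1 and 17.5 TPM.

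In the nuclear receptors, Nr1h2 (LXR beta) was at 155, 150.4 and 171 TPM and Nr1h3 (LXR alpha), the form known from macrophages and liver, at 50.1, 51.8 and 49.6 TPM, a ratio of 3.15 ± 0.269. Pparg was at 50.9, 60.7 and 53.03 TPM and Ppard at 33.7, 35.6 and 31.7 TPM, and Ppara was at the floor. Rxra was at 124, 120.2 and 127 TPM, Rxrb at 63.7, 67.8 and 77.99 TPM and Rxrg at the floor. The glucocorticoid receptor gene Nr3c1 was at 62.9, 58.9 and 56.1 TPM, while Vdr and Nr3c2 were low and Pgr and Esr2 were at the floor.

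Of 21 families of signalling proteins 12 had a clear leader. Syk, the kinase below Fc receptors, was at 285, 293 and 284 TPM and Zap70, its T cell relative, was low. Lyn, a kinase of the SRC family, was at 199, 215 and 221 TPM, and Yes1 and Blk were at the floor. Plcg2 was at 307, 312 and 305 TPM and Plcg1 at 15.997, 16.7 and 17.6 TPM, a ratio of 18.4 ± 0.969. Both members of that pair are phospholipases below receptor kinases. Ptpn6 (SHP-1) was at 525, 529 and 522 TPM and Ptpn11 (SHP-2) at 63.5, 64.02 and 66.4 TPM. Gnai2 was at 1122, 1113 and 1103 TPM, Gnai3 at 139, 129 and 129 TPM and Gnai1 at the floor. The leader thus held most of each of these 3 families. Rac2, the form of blood cells, was at 395, 363 and 368 TPM and Rac1 at 265, 248 and 253 TPM. Pik3r5, the p101 subunit of the PI3K coupled to G proteins, was at 307, 325 and 303 TPM, above Pik3r1 at 75.2, 75.6 and 70.4 TPM. No such gap was present between the catalytic PI3K subunits, with Pik3cd at 101 ± 2.43 TPM and Pik3cg at 72.5 ± 4.88 TPM. Among genes against apoptosis Mcl1 was at 989, 949.7 and 958 TPM and Bcl2l1 at 75.8, 78.2 and 83.97 TPM. Inppl1 exceeded Inpp5d (SHIP-1) at 354, 338 and 340.0 against 296, 289.6 and 287 TPM, an order that was lost with the longest transcript as length.

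Of 26 metabolic families 18 had a clear leader. Hk3 was the main hexokinase at 249, 258 and 297 TPM, against 78.4, 78.6 and 81.4 TPM for Hk1 and 61.1, 60.8 and 58.4 TPM for Hk2. Hk3 was highest in replicate 3. Aldoa was at 1729, 1721 and 1745 TPM, Pkm at 1032, 983 and 966 TPM and Ldha at 263, 271 and 273 TPM, and Pklr was low. Slc2a1 (GLUT1) was at 79.98, 72.1 and 71.6 TPM, Slc2a6 at 51.9, 60.5 and 52.9 TPM and Slc2a3 (GLUT3) at 5.09, 6.12 and 5.69 TPM, with Slc2a2 and Slc2a4 at the floor. Cpt1a, which admits fatty acids to mitochondria, was at 158, 151 and 152 TPM and Cpt1b at the floor. Scd2 was at 16.7, 16.3 and 17.6 TPM and Scd1, the liver and fat form of the desaturase, at 1.76, 1.15 and 0.988 TPM.

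All 5 families of oxidant production and defence had a clear leader. Cybb, the catalytic subunit of the phagocyte NADPH oxidase, was at 903, 829 and 811 TPM, and no other oxidase of its family was expressed. All 6 subunits of that complex were expressed, with Cyba the highest at 1884, 1884 and 1943 TPM. Gpx1 was at 1024, 993 and 1053 TPM and Prdx1 at 776, 704 and 711 TPM. No nitric oxide synthase gene was expressed, and Nos2 was at the floor. Of the arginases Arg1 was low, at 0.455, 0.103 and 0.189 TPM, and Arg2 was at 5.06, 5.72 and 3.31 TPM. Ptgs1 was at 41.1, 49.5 and 43.6 TPM and Ptgs2, the inducible cyclooxygenase, was low at 0.111, 0.653 and 0.643 TPM.

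Among 31 cytokine and growth factor genes 19 were expressed (beside 47.4% of all protein-coding genes). Grn (progranulin) was at 2724, 2721 and 2847 TPM, Spp1 (osteopontin) at 2656, 2660.1 and 2625 TPM and Igf1 at 599, 580.2 and 547 TPM. Csf2, Csf3, Il6, Il12a, Il12b, Il23a, Ifnb1 and Lif were at the floor. In a list of 13 classical activation genes 5 were expressed, led by Tnf at 35.9, 34.2 and 35.5 TPM. In a list of 14 alternative activation genes 5 were expressed, led by Mrc1. Both counts stand beside the same 47.4%. Il1b was at 8.85, 6.096 and 7.495 TPM and Retnla at the floor. CC chemokines were led by Ccl9 at 253, 251 and 241 TPM, Ccl6 at 161, 166 and 165 TPM and Ccl3 at 149, 139 and 142 TPM. Ccl2, the monocyte attractant, was low, and Ccl8, Ccl11, Ccl12, Ccl17 and Ccl24 were at the floor. Cxcl16 was at 479.6, 478 and 482 TPM and Cxcl9 at the floor. Lgals3, galectin-3, was at 5385, 5273 and 5697 TPM, and Mmp12, macrophage elastase, was the highest metalloproteinase at 133, 129 and 133 TPM.

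Class I antigen presentation genes were far above class II genes per length. All 13 class I genes were expressed, with B2m at 9216, 9139 and 8724 TPM and H2-D1 at 4131, 3975 and 4341 TPM. Of 11 class II genes 6 were expressed (beside 47.4% of all protein-coding genes), with H2-Ab1 at 23.3, 28.3 and 29.4 TPM. Ciita, their activator, was low.

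Proliferation genes were all detectable. The 28 S phase and 28 mitosis genes were all expressed (beside 47.4% of all protein-coding genes). Pcna was at 171, 174 and 178 TPM and Mki67 at 67.996, 72.3 and 58.6 TPM. Interferon-stimulated genes were expressed in 48 of 50 cases, with Isg15 at 7.42, 4.23 and 5.37 CPM and Mx1 at 7.69, 11.5 and 8.64 CPM.

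Genes with near-identical copies have uncertain levels. The share of the 50-base words of a gene that also occur in transcripts of another gene was computed for each gene, a measure chosen after the values were seen. Of the 10989 expressed genes, 670 (6.10%) shared over 20% and 197 shared over 50%. The 48 cytosolic ribosomal protein genes of a list took only 0.416% to 0.434% of counts. Rpl8, which shares 6.3%, was at 1046, 1008 and 1087 TPM, and Rps6, which shares 84.6%, was low at 1.68, 1.52 and 2.12 TPM. The median level was 444 TPM over the 4 ribosomal genes that share under 10%, 109 TPM over the 18 at 10% to 30%, 12.4 TPM over the 13 at 30% to 60% and 28.997 TPM over the 13 above. Gapdh was at 75.9, 82.7 and 80.001 TPM with 58.4% shared, and Actg1 at 1.72, 2.34 and 2.93 TPM with 45.6% shared, against 6733, 6897 and 7084 TPM for Actb. Of 13 mitochondrial mRNAs, 6 had no count in any of the 3 libraries. Of these mt-Co2, mt-Atp6, mt-Co3, mt-Nd3 and mt-Nd4l share at least 97.99% of their words, but mt-Atp8 shares 0% and mt-Co1, at 7791 ± 325 CPM, shares 51.1%. Copies outside annotated transcripts are not covered by this measure. The part of read sharing in these levels was not tested.

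The spread between the 3 libraries was small for most genes. The common biological coefficient of variation of edgeR was 10.9% over 12211 genes, beside 8.96% for the group given ApoE-deficient exosomes and 10.98% for the group given wild-type exosomes. Over 9491 genes with a mean of at least 5 CPM the median CV was 6.31%, while counting error alone gives a median of 2.84%. A CV over 20% was found in 502 of them (5.29%) and over 50% in 4, Fn1, Col1a1, Col1a2 and the actin gene Acta2 of smooth muscle. The median CV fell with the level, from 25.2% at 1 to 5 CPM and 11.9% at 5 to 20 CPM to 6.13% at 20 to 100 CPM, 3.57% at 100 to 500 CPM and 2.45% above. The median of variance over mean of the counts was 4.98 in the lowest of these classes and 16.5 in the highest, so that the spread exceeded counting error at every level. Among the 502 genes, replicate 1 was the farthest from the other libraries in 144, replicate 2 in 180 and replicate 3 in 178.

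**Figure D4:**
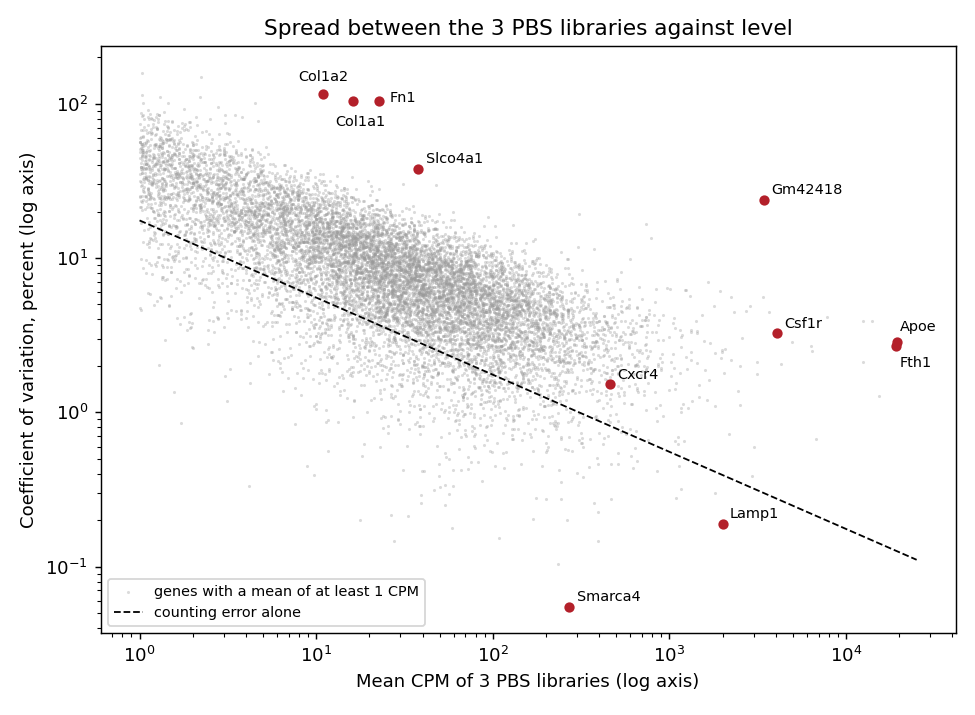
CV in percent (y axis, log scale) against mean CPM (x axis, log scale) for genes with a mean of at least 1 CPM. The dashed line is the CV that counting error alone gives. Fn1, Col1a1 and Col1a2 lie above a CV of 100% and Slco4a1 at 38.1%, while Smarca4 and Lamp1 lie below the line.

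The most even protein-coding genes with a mean of at least 20 CPM were Smarca4, an ATPase of chromatin remodelling, at 272, 272 and 272 CPM, Xylt1, Flii, Nanos1, Fam49b, Vars, Lamp1, Ankfy1, Srsf2 and Mlx. Their CVs of 0.0551% to 0.212% lie below counting error, and they were picked from 6512 genes as the lowest.

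The least even of these 6512 genes was Fn1, fibronectin, at 6.51, 11.6 and 49.99 CPM with a CV of 105%. Without replicate 3 its mean fell from 22.7 to 9.04 CPM and its CV to 39.7%. It was followed by Slco4a1, a solute transporter, at 54.4, 27.8 and 31.4 CPM with a CV of 38.1%, where replicate 1 was the high library. The other 18 of the 20 least even genes had CVs of 20.9% to 29.1%, among them Zfp386 at 25.8, 21.7 and 14.01 CPM, Sp110 at 16.6, 29.2 and 21.97 CPM and Ptgir. They are genes of 20.01 to 35.3 CPM, near the lower limit of the selection.

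Few genes stood apart in 1 library to a similar degree. Of 10631 genes with a mean of at least 2 CPM, 7 were at least 3 times higher in replicate 3 than in both other libraries, compared with 1 gene in replicate 1, the lincRNA Gm9796, and 0 in replicate 2. These limits were set after the values were seen, and the genes are listed as a description. The 7 were Fn1, Col1a1, Col1a2, Col5a1, the proteoglycan gene Bgn at 1.08, 2.73 and 9.69 CPM, the metalloproteinase inhibitor gene Timp3 at 0, 0.613 and 6.04 CPM, and Unc5b, a netrin receptor gene. Col5a1, a chain of type V collagen, was at 0.746, 0.827 and 4.999 CPM. At least 3 times lower than in both others were Col5a2 and Timp3 in replicate 1, Tom1 in replicate 2 and Saa3, an acute phase gene, in replicate 3. Saa3 was at 2.27, 5.698 and 0.424 CPM. Col3a1, a chain of type III collagen, was not highest in replicate 3, at 0.305, 1.16 and 1.16 CPM. The fibroblast list gave 10.5, 17.3 and 71.8 CPM in the same libraries, and its part in the level of Fn1 was not tested. Fn1 also varied in the libraries of the other groups, from 5.15 to 20.2 CPM with ApoE-deficient exosomes and from 9.96 to 26.1 CPM with wild-type exosomes.

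Slco4a1 varied in each group as well. It was at 66.99, 34.5 and 37.97 CPM with ApoE-deficient and at 36.4, 19.6 and 19.02 CPM with wild-type exosomes, and replicate 1 was the highest in all 3 groups. Over 6635 genes with a mean of at least 20 CPM, the rank correlation of CVs between groups was 0.281 to 0.287, as a description across genes.

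Some gene lists moved together between the 3 libraries by small amounts. Interferon-stimulated genes with a mean of at least 5 CPM were highest in replicate 2 in 32 of 42 cases and lowest in replicate 1 in 29, whereas 34.7% of all genes were highest in replicate 2 and 32.8% lowest in replicate 1. Their mean on the log2(CPM + 0.1) scale lay 0.10 above the gene means in replicate 2 and at -0.08 in replicate 1. Mx1 was highest in replicate 2, but Isg15 was lowest there. NRF2 targets were highest in replicate 1 in 18 of 22 cases, against 32.9% of all genes. Among them Nqo1, a quinone reductase, was at 7.69, 4.72 and 4.91 CPM and Gclm, a subunit of the enzyme that makes glutathione's precursor, at 423, 348 and 349 CPM, and Hmox1 at 1111, 1044 and 1030.3 CPM. The list lay 0.11 above the gene means in replicate 1 on the log2 scale.

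Mitosis genes were highest in replicate 2 in 14 of 26 cases (beside 34.7% of all genes), and nuclear genes of the respiratory chain in replicate 3 in 23 of 39 (beside 32.4% of all genes). The 6 expressed MHC class II genes lay at -0.13, 0.02 and 0.11 on the log2 scale around their means, and their median CV of 11.8% was the highest of the 16 lists described. Lists were not matched for level in this ranking, and all genes had a median CV of 11.9% at 5 to 20 CPM and 6.13% at 20 to 100 CPM. The 3 libraries differ in no label, and what moves with these shifts was not tested.

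**Figure D5:**
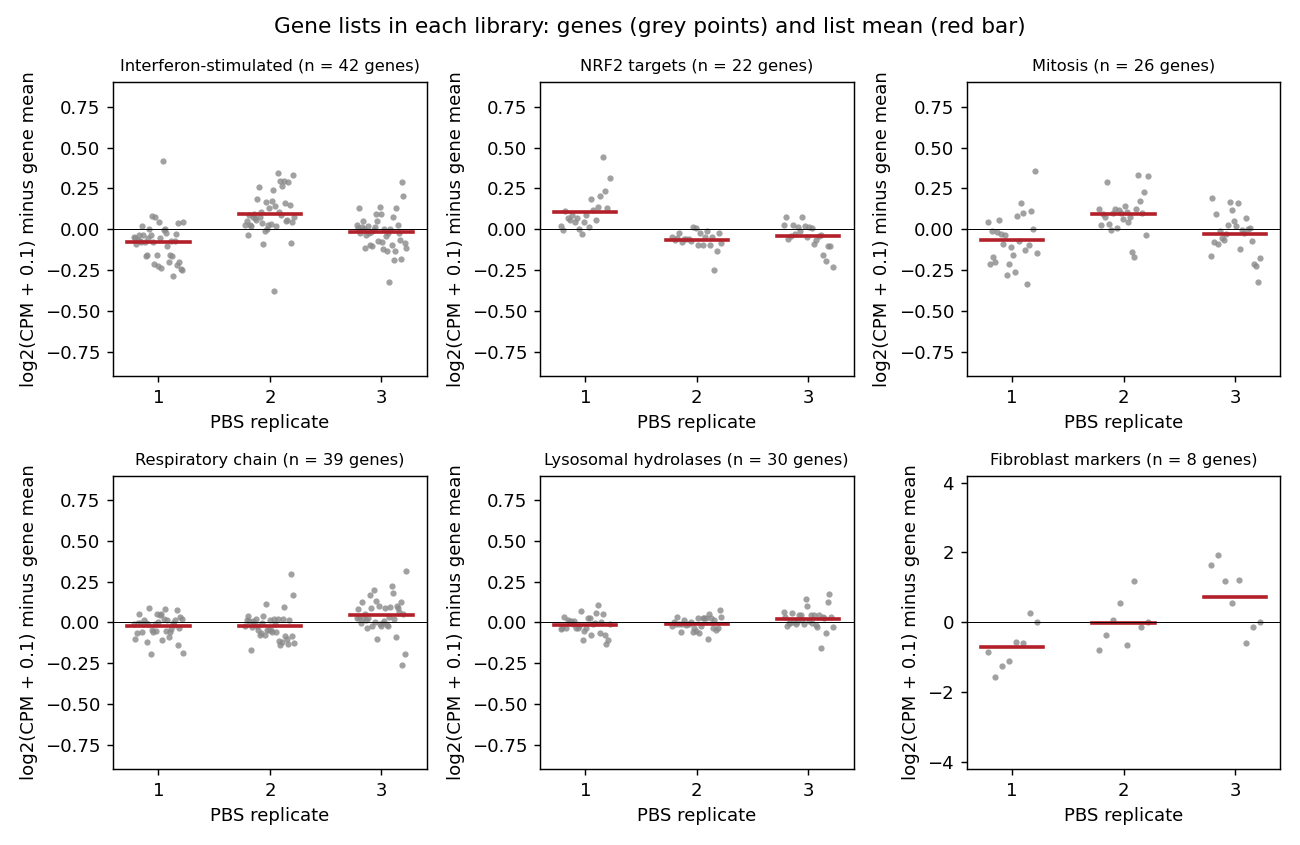
Log2(CPM + 0.1) minus the mean of the gene over the 3 PBS libraries (y axis) for the genes of 6 lists (points), by replicate (x axis), with the list mean as a red bar. Interferon-stimulated genes lie highest in replicate 2 and NRF2 targets in replicate 1, lysosomal hydrolases stay near 0, and the fibroblast list, drawn whole and on a wider axis, is highest in replicate 3 for Col1a1, Col1a2, Postn and Cxcl12 but not for its other members.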

How the data were processed

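Libraries for mRNA sequencing were prepared from total RNA, per the labels' protocols. The authors deposited 1 table of raw counts, gene by library, that holds all 9 libraries. The submitters' processing notes name STAR 2.7.5c as a tool and GRCm38 as a build. Which annotation release and strand setting the counting used, and how reads that map to several places were handled, is not given in the sources used here, so overlapping genes cannot be told apart with certainty. All 55536 gene IDs matched GENCODE M21, which gave symbols and merged exon lengths.

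From the deposited counts, CPM of all counted reads, TPM, means, SDs and CVs over the 3 PBS libraries were computed with pandas 2.3.3 in Python 3.11.15. The common biological coefficient of variation came from edgeR 4.0.16 in R 4.3.3 with TMM factors, an intercept-only design and filterByExpr at a minimum count of 10. This step was tested on simulated data. No test between groups was run and no p-value was computed. Read sharing was measured as the share of 50-base words in protein-coding transcripts of GENCODE M21 that occur in another gene. Promoter windows came from RefSeq (GRCm38.p6).

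Family members and gene lists were taken from textbook knowledge and chosen with earlier results of these data known. Named genes followed a rule: the 20 highest genes by mean CPM and by mean TPM, the leading, the next and the floor members of each family with all members of families of up to 8, up to 6 highest members of each list, and the 20 highest and 10 lowest CVs among protein-coding genes with a mean of at least 20 CPM. Some genes that the rule names are not reported here. Further members of larger families and genes that stand apart in 1 library were chosen after their values were seen. Alternatives were other thresholds, lengths and normalisations (TMM, DESeq2 1.42.0 size factors) and leaving out each library in turn.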

Additional observations from a re-analysis of the deposited data

How the results depend on the processing

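The number of expressed genes stayed within 1.5 times of 10989 in all 7 alternatives, between 9248 at a threshold of 5 CPM and 11666 at 0.5 CPM. Families with a clear leader numbered 89, and 69 at 3 times the next member, 98 at 1.5 times, 84 with the longest transcript as length, 79 in CPM, and 89 to 91 without 1 of the replicates. The leading member was the same in 127 of 137 families with the longest transcript and in 117 in CPM. Without replicate 1 or 2 it was the same in 135 families, and without replicate 3 in 136. The common biological coefficient of variation was 17.1% with no filter on low counts and 10.2% to 11.7% without 1 replicate. The median CV was 7.57% with a mean of at least 1 CPM, 5.04% with at least 20 CPM, and 4.88% to 5.25% without 1 replicate, where a CV of 2 libraries is lower by construction. The median level of expressed genes was 29.5 CPM, 29.4 with DESeq2 size factors and 29.4 to 29.5 without 1 replicate. Of 1210 gene levels, 15 moved by more than their SD with DESeq2 size factors and none with TMM factors. Leaving out a replicate cannot move a level by more than its SD over 3 libraries, so the absence of such moves there was fixed in advance.

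No paired analysis was possible because no group was compared with another and no result comes from a test. Between PBS and other groups, deviations of same-numbered libraries from their group means correlated at -0.02 to 0.07 over 6635 genes.

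Depth limits genes near the floor of 3 counts, and levels of genes with near-identical copies are uncertain at any depth. With 3 libraries, single CVs are imprecise.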
